A study of Mus musculus with 12 samples.

Results

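The effect of diet on mouse liver RNA was examined across all 12 of the 12 libraries of the series, as the difference between HFD (high-fat diet) and normal diet averaged over both p53 genotypes. HFD libraries were set against normal diet libraries with the genotype kept as a separate factor, and 14433 of the 52636 listed genes had enough reads to be tested. All libraries were made from total RNA of livers of C57BL/6 mice aged 12 weeks. The 4 groups of 3 libraries are wt_normal (p53 wild type, normal diet), wt_HFD (p53 wild type, HFD), ko_normal (p53 ko, normal diet) and ko_HFD (p53 ko, HFD), so each diet has 6 libraries. The p53 ko allele and whether it acts in all cells, the composition and length of the diets, the sex, the feeding state and the time of day are among the details the labels leave out. The replicates are numbered but not tied to individual mice, so each p-value reflects library-to-library spread, some of which may be technical.

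The liver adjusts its metabolism to the fuel that arrives from the gut. Hepatocytes make cholesterol through a chain of enzymes under the control of the transcription factor SREBP2, which is held back when sterols are plentiful, and they switch between making glucose and storing it in response to insulin. They also break down amino acids and dispose of the nitrogen as urea, mainly in the periportal zone of the lobule, and clear drugs and bile acids with cytochrome P450 enzymes, conjugating enzymes and transporters, many of them pericentral. High-fat feeding is widely used to change lipid and glucose handling in this organ.

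Libraries held 15465187 to 20492567 counts each. The hepatocyte genes Alb and Ttr stood at 17789 to 45464 CPM and 4810 to 9070 CPM over the 12 libraries (CPM, normalised read count scaled by library totals and TMM factors), and the diets did not separate either of them (adjusted p 0.979 and 0.924). Of 9 tested hepatocyte markers 1 was called, Cps1 of the urea cycle, which was lower on HFD, and their median log2 change was 0.07. Trp53, the gene encoding p53, lay between 8.54 and 24.5 CPM in the 6 wt libraries and between 0.273 and 1.62 CPM in the 6 ko libraries. Its diet effect was a log2 difference of −0.06 ± 0.38 (SE, adjusted p 0.951). Library wt_normal replicate 2 stood apart with 0.912% of its counts in skeletal muscle markers, against at most 0.00134% in each HFD library. Libraries ko_normal replicate 1 and ko_HFD replicate 2 had 14.6% and 10.3% of their counts in mitochondrially encoded genes, against 4.18% to 7.22% in the other libraries. Because whole liver was sequenced, fewer cells of a type and less RNA per cell cannot be told apart for any gene described here.

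Diet changed 150 of the 14433 genes at an adjusted p under 0.05, which is 1.04% of the genes tested. Of these, 84 were higher on HFD (0.582%) and 66 were lower (0.457%). These shares of all genes are the background for the counts of called list members given below, and no list count was tested against them. The median log2 change of all genes was −0.02, and 2541 genes (17.6%) had an unadjusted p under 0.05. Among the 150 genes, 89 differed by at least 2-fold (49 higher, 40 lower) and 22 by at least 4-fold, and 126 were protein-coding. In 110 of the 150, the HFD and normal libraries did not overlap within either genotype, against 441 of all 14433 genes (3.06%), a property close to what the test itself selects. Scaling by library totals without TMM factors gave 157 genes, of which 34.4% were higher on HFD against 56.0% in the values reported here, and it shifted the median of all genes to −0.12. The count fell to 28 (17 higher, 11 lower) when the 3 libraries that stood apart were all left out, and 26 of the 28 were among the 150. Leaving out single libraries gave between 45 genes, without ko_HFD replicate 1, and 272 genes, without wt_HFD replicate 3. All 150 genes kept their direction in each of these fits.

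**Figure D1:**
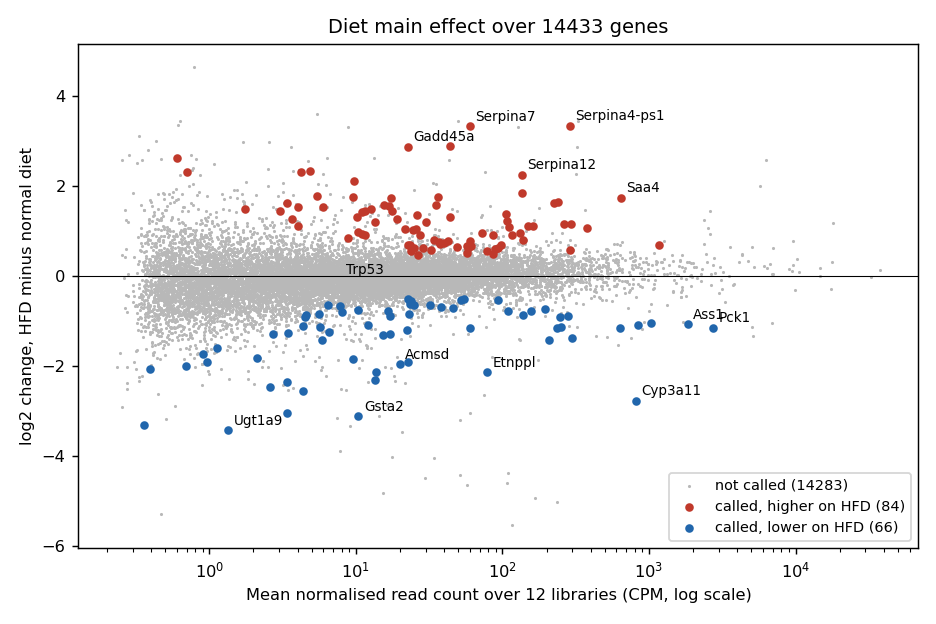
Change with diet against level for the 14433 genes tested; the x axis is the mean CPM over 12 libraries on a log scale and the y axis the fitted log2 change, HFD minus normal diet. The 84 genes called higher (red) and the 66 called lower (blue) span the range of levels, and the uncalled points below −4 at higher levels include skeletal muscle genes that were abundant in 1 normal diet library.

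Of 20 tested members of the cholesterol synthesis list, 5 were called higher and none lower, 17 had a positive log2 change, and the median was 0.64 against −0.02 for all genes. The called members act at successive parts of the pathway, from the mevalonate enzymes Mvk and Mvd through squalene epoxidase (Sqle) to the sterol demethylation enzymes Cyp51 and Msmo1. Msmo1 (methylsterol monooxygenase, chromosome 8, 64718139 to 64733792) was at 9.6 to 25.7 CPM on the normal diet (median 17.6) and at 37.8 to 68.4 CPM on HFD (median 49.8), a log2 change of 1.60 ± 0.14 (SE, adjusted p 0.000171). Cyp51 (lanosterol demethylase, chromosome 5, 4081145 to 4104746) was at 19.2 to 29.7 CPM (median 25.8) and at 51.2 to 98.9 CPM (median 56.3), a change of 1.32 ± 0.14 (adjusted p 0.00123). The diets did not overlap for either gene, even across genotypes.

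Sqle (chromosome 15, 59315077 to 59331192), which oxidises squalene in the first oxygenation step of the pathway and is named in the title of the series, was at 4.31 to 9.92 CPM on the normal diet (median 5.46) and at 10.9 to 34.2 CPM on HFD (median 14.7). Its change was 1.5 ± 0.21 (SE, adjusted p 0.00775), with 1.38 in wt and 1.61 in ko livers. All 6 HFD libraries lay above all 6 normal libraries, and the highest 3 values were those of ko_HFD. Mvd, the mevalonate decarboxylase, rose by 1.32 ± 0.17 (adjusted p 0.00534), from a median of 6.08 to 14.3 CPM, again without overlap. Mvk, the mevalonate kinase, rose by 0.85 ± 0.17 (adjusted p 0.0413), from a median of 6.76 to 11.1 CPM, and its diets overlapped only across genotypes. Among members that were not called, Lss and Fdft1 had log2 changes of 0.67 (adjusted p 0.0756) and 0.64 (adjusted p 0.082), and the synthase Hmgcs1 had 0.64 (adjusted p 0.108). The exceptions to the direction included Tm7sf2 (−0.37, adjusted p 0.174) and Hsd17b7, close to 0. Fdps and Idi1 were listed at no more than 3.32 CPM in any library, which can reflect reads shared with near-identical copies, so their values are uncertain. The number of called members was 4 to 6 when single libraries were left out, 4 without the 3 libraries that stood apart, 12 with the Wald test of DESeq2, 2 in the wt libraries alone and 0 in the ko libraries alone, where 16 of 19 tested members were positive.

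Promoter sequence was available in RefSeq (GRCm38.p6) for 4 of the 5 called members, Cyp51, Msmo1, Mvd and Mvk, and was searched from 250 bases before to 50 bases after each start on both strands. The sequences are shown because these genes moved together and share a motif. The letters CCAAT, the CCAAT box bound by NF-Y, stood in 4 of 4 of these promoters and in 37.4% of all 32851 RefSeq promoters of that length. They also stood in 3 of 4 promoters of the called xenobiotic genes, which fell. In the other lists searched the share was 33.3% to 50%, so the motif is not particular to genes that rose. The letters TCACNCCAC, a form of the sterol regulatory element, stood in 0 of 4 and in 1.24% of all promoters. The other motifs searched were CACGTG (0 of 4, 7.15% of all), TGACNNNGC (1 of 4, 12.4%), TTGCATCA (0 of 4, 0.895%) and TTATGTAA (0 of 4, 0.938%), and no match overlapped a match of another motif. A match describes the letters and does not show a bound site, and a missing match says only that these letters are not in this window. Cyp51 held 1 match before its start, Msmo1 3, Mvd 2 and Mvk 5. For Mvd and Mvk the stretch around the matches is printed 5′ to 3′ on the strand of the gene, with CCAAT or its reverse complement ATTGG in capitals. The stretches are chr8:122443425-122443502 (minus strand) for Mvd and chr5:114444076-114444268 (plus strand) for Mvk, and neither overlaps a GENCODE exon of its gene. Those of Cyp51 and Msmo1 overlap the first exon of a GENCODE transcript and are not printed.
Mvd: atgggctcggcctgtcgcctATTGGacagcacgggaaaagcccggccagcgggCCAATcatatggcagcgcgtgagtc
Mvk: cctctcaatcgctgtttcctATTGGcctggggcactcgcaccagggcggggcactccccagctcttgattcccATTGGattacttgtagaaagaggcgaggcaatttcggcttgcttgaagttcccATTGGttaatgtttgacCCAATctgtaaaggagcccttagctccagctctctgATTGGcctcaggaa

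Of 19 genes that sense, take up or export sterols, 2 were called higher and none lower, and the median was 0.10. Stard4, a cytosolic sterol carrier, rose by 1.03 ± 0.16 (SE, adjusted p 0.0136), from a median of 16.1 to 28.1 CPM. The regulator gene Srebf2 (0.32, adjusted p 0.172), the exporter Abca1 (0.30, adjusted p 0.307) and the sterol exporter subunit Abcg8 (−0.20, adjusted p 0.443) were not called.

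Few genes of fatty acid handling passed the test, as was so for all genes (1.04% called). None of 18 tested genes of fatty acid and triglyceride synthesis was called (median 0.11, 9 with an unadjusted p under 0.05), and none of 24 genes of fatty acid oxidation and ketogenesis (median −0.04, 1 with an unadjusted p under 0.05). Over all genes, 17.6% had an unadjusted p under 0.05, so the synthesis list lay above that share and the oxidation list below it. The Wald test of DESeq2 called 3 genes of the first list and 0 of the second, and limma voom 2 and 0. Thrsp, a lipogenic gene, ranged from 5.35 to 62.9 CPM on the normal diet (median 14.1) and from 11.5 to 938 CPM on HFD (median 102), with a log2 change of 3.32 ± 0.74 and an adjusted p of 0.0543. Scd1, the stearoyl-CoA desaturase, ranged from 249 to 1728 CPM (median 840) and from 54.3 to 620 CPM (median 324), with −1.52 ± 0.43 and an adjusted p of 0.107. Both genes overlapped between the diets and varied widely within each diet. The fatty acid synthase gene Fasn (0.41, adjusted p 0.179), the oxidation regulator Ppara (0.01, adjusted p 0.983) and the PPARα targets Cyp4a10 (0.04, adjusted p 0.969) and Cyp4a14 (−0.15, adjusted p 0.912) were not called.

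Among 22 tested genes of lipid droplets and of fatty acid uptake and binding, 1 was called higher. Fabp5, a fatty acid binding protein, was at 3.32 to 14.9 CPM on the normal diet (median 5.82) and at 5.93 to 49.4 CPM on HFD (median 20.1), a change of 1.60 ± 0.33 (SE, adjusted p 0.0413). The wt and ko changes were 2.95 ± 0.48 and 0.24 ± 0.45 (unadjusted interaction p 0.0012), and all 3 wt_HFD libraries lay above every other library. Fabp5 lost its call in 7 of the 12 fits that left out 1 library, in the additive model and with library totals without TMM factors. Mfsd2a, a lysophospholipid transporter named after its values were seen, rose by 1.11 ± 0.23 (adjusted p 0.0437), with 0.43 in wt and 1.78 in ko livers. Aacs, an acetoacetyl-CoA synthetase named after its values were seen, rose by 1.56 ± 0.23 (adjusted p 0.00898), from a median of 8.63 to 23 CPM.

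Of 20 tested members of the list for amino acid breakdown and the urea cycle, 6 were called lower and none higher, 19 had a negative log2 change, and the median was −0.76. Ass1 (argininosuccinate synthase, chromosome 2, 31470207 to 31520672) was at 1673 to 3428 CPM on the normal diet (median 2500) and at 713 to 1621 CPM on HFD (median 1103), a change of −1.07 ± 0.19 (SE, adjusted p 0.0231). The diets did not overlap. Arg1, the arginase that releases urea, fell by 1.03 (SE 0.17, adjusted p 0.0172), from a median of 1322 to 646 CPM. Cps1, the entry enzyme of the cycle, fell by 1.07 (SE 0.22, adjusted p 0.0413), from 1029 to 434 CPM, with a highest HFD value of 809 CPM and a lowest normal value of 808 CPM, and it kept its call in 2 of the 12 fits that left out 1 library. The cycle gene Asl (−1.02, adjusted p 0.0674) and Otc (−0.36, adjusted p 0.271) were not called. Gm5424, listed as a processed pseudogene on chromosome 10, fell with Ass1 (−1.16), and their reads may be shared, so the split between them is uncertain.

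The other called members feed nitrogen or carbon into these routes. Hal, the histidine ammonia-lyase, was at 286 to 523 CPM (median 440) on the normal diet and at 83.8 to 296 CPM (median 182) on HFD, a change of −1.37 ± 0.22 (SE, adjusted p 0.0137). Its neighbour Amdhd1, which acts later in histidine breakdown and was named after its values were seen, fell by 0.77 (SE 0.15, adjusted p 0.0377). Gls2, the liver glutaminase, fell by 1.14 (SE 0.22, adjusted p 0.033), and Cth, the cystathionine gamma-lyase, fell by 0.89 (SE 0.16, adjusted p 0.0256). Outside the list, Got1, the cytosolic aspartate aminotransferase, fell by 1.41 (SE 0.23, adjusted p 0.0158), from a median of 211 to 89.7 CPM, and Etnppl, a phosphoethanolamine-degrading enzyme, fell by 2.13 (SE 0.27, adjusted p 0.0047), from 133 to 31.7 CPM. Slc7a2, a carrier of cationic amino acids named after its values were seen, fell by 0.90 (SE 0.14, adjusted p 0.0136). The one list member with a positive change was Glul, the pericentral glutamine synthetase (0.34, adjusted p 0.36). These calls depended on the libraries used. The list had 0 called members without ko_HFD replicate 1, 1 without ko_normal replicate 3, 2 without wt_normal replicate 3 or wt_HFD replicate 2, up to 7 without wt_HFD replicate 3, and 0 without the 3 libraries that stood apart, while its median stayed between −0.84 and −0.58 in these fits.

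**Figure D2:**
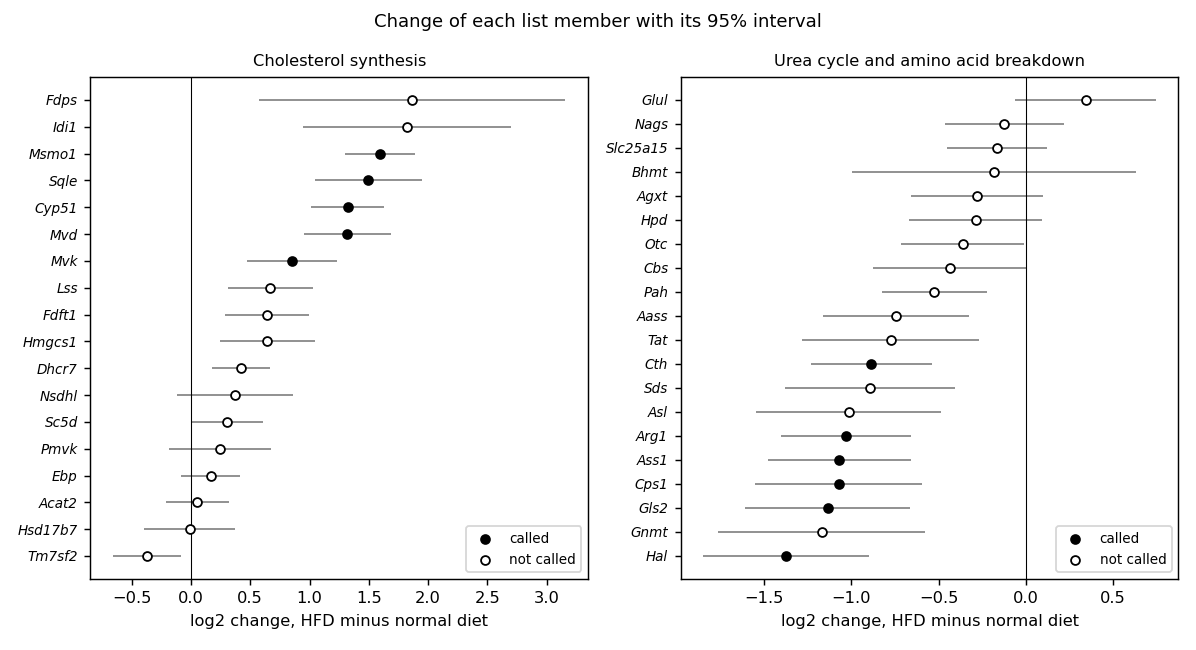
Fitted log2 change, HFD minus normal diet, of tested genes of cholesterol synthesis (left) and of the urea cycle and amino acid breakdown (right), with 95% intervals. Filled points are genes called at an adjusted p under 0.05; 16 of the 18 genes shown lie right of 0 on the left and 19 of 20 lie left of 0 on the right.

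By zone of the lobule, of 12 tested periportal genes 6 were called lower (median −0.96), and 5 of these 6 also belong to the urea cycle and amino acid list, so the lists are not separate evidence. The periportal count was 0 without ko_HFD replicate 1 or without the 3 libraries that stood apart, 1 without wt_HFD replicate 2 or ko_normal replicate 3, 2 without wt_normal replicate 3, and 3 without wt_normal replicate 1 or 2, ko_normal replicate 1 or ko_HFD replicate 2. Of 15 tested pericentral genes none was called lower and 1, Lect2, was called higher (median −0.14). The difference between the zones was not tested. Among periportal genes outside nitrogen metabolism, Cdh1 (0.11), Pigr (0.20) and Hsd17b13 (0.04) were not called, with adjusted p-values of 0.828, 0.482 and 0.943. The 1 called periportal gene that is not on the urea cycle and amino acid list is none of these, so the falls were not confined to that list. In tryptophan breakdown, 1 of 14 tested genes was called. Acmsd, the decarboxylase that diverts tryptophan away from NAD synthesis, was at 10.9 to 57.3 CPM (median 34.4) on the normal diet and at 4.9 to 10.3 CPM (median 7.6) on HFD, a change of −1.95 ± 0.31 (SE, adjusted p 0.0136). Its diets did not overlap, and the lowest normal value and the highest HFD value both came from ko livers.

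In glucose metabolism, 2 of 20 tested genes were called higher and 1 lower (median 0.05). Pck1 (chromosome 2, 173153048 to 173159273), the enzyme that commits carbon to new glucose, was at 2794 to 5101 CPM on the normal diet (median 3779) and at 947 to 2602 CPM on HFD (median 1674), a change of −1.14 ± 0.21 (SE, adjusted p 0.0305). The diets did not overlap.

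Foxo1, a transcription factor that insulin restrains, rose by 0.58 ± 0.11 (SE, adjusted p 0.0344), from a median of 27.5 to 39.7 CPM without overlap. The glucose-6-phosphatase gene G6pc (−0.54, adjusted p 0.264), the fructose bisphosphatase Fbp1 (−0.53, adjusted p 0.355), Igfbp1 (1.26, adjusted p 0.267) and the receptor genes Insr (0.12, adjusted p 0.693) and Irs2 (−0.07, adjusted p 0.92) were not called. Pck1 lost its call in 7 of the 12 fits that each left out 1 library and Foxo1 in 10, with ranges of −1.24 to −1.01 and 0.51 to 0.63.

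Several genes that clear drugs and bile acids fell, while the medians of both lists stayed near 0. Of 30 tested genes of xenobiotic metabolism, 3 were called lower and none higher (median −0.09). Of all genes, 0.457% were called lower and 0.582% higher. Cyp3a11 (chromosome 5, 145854426 to 145879964), a major drug-oxidising P450 of the mouse liver, was at 1181 to 1651 CPM on the normal diet (median 1386) and at 77.8 to 465 CPM on HFD (median 209). Its change of −2.77 ± 0.21 (SE) had the smallest adjusted p of all genes, 0.00013, and every HFD library lay below every normal one. Gsta2 (chromosome 9, 78331018 to 78355788), a glutathione transferase, was at 9.7 to 29.7 CPM (median 18.1) and at 0.481 to 5.87 CPM (median 2.87), a change of −3.11 ± 0.32 (adjusted p 0.000787). Gstm1 fell by 1.16 (SE 0.20, adjusted p 0.0186), from a median of 842 to 414 CPM, without overlap. Both enzyme families have near-identical copies, so the split of reads between members is uncertain.

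Other enzymes of the kind moved without belonging to the list. Ugt1a9, a glucuronosyltransferase, was at 1.16 to 4.39 CPM (median 2.12) on the normal diet and at 0 to 0.46 CPM (median 0.19) on HFD, a change of −3.43 ± 0.58 (SE, adjusted p 0.0186) that rests on few reads and on a gene whose last exons are shared with its family. Cyp3a59 fell by 2.32 (SE 0.35, adjusted p 0.0118), and Cyp2c69 and Cyp2c40 fell by 2.56 (SE 0.41, adjusted p 0.0136) and 1.83 (SE 0.32, adjusted p 0.0237). Gsto1 fell by 0.77 (SE 0.13, adjusted p 0.0217) and Dpyd, which degrades pyrimidines, by 0.72 (SE 0.14, adjusted p 0.0375), while the transferase Gstp3 rose by 1.06. These genes other than Ugt1a9 were named after their values were seen. Cyp2e1 (0.06), Cyp1a2 (−0.07) and Cyp2c29 (0.06) were not called, nor were the receptor genes Nr1i2 (0.32, adjusted p 0.532) and Nr1i3 (0.01, adjusted p 0.986).

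Of 19 tested genes of bile acid synthesis and transport, 2 were called lower, both transporters (median −0.09). Slco1a4, a basolateral uptake carrier, was at 18.2 to 72.7 CPM (median 29.7) on the normal diet and at 3.19 to 20.4 CPM (median 10.8) on HFD, a change of −1.90 ± 0.28 (SE, adjusted p 0.0094). Abcc3, a basolateral exporter, fell by 0.87 (SE 0.13, adjusted p 0.0122), from a median of 183 to 102 CPM without overlap. The synthesis genes Cyp7a1 (0.69, adjusted p 0.463) and Cyp8b1 (−1.14, adjusted p 0.198) were not called and overlapped between the diets. None of 16 antioxidant genes was called by edgeR (median −0.07, 3 at an unadjusted p under 0.05), and DESeq2 and limma voom each called 1 lower.

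**Figure D3:**
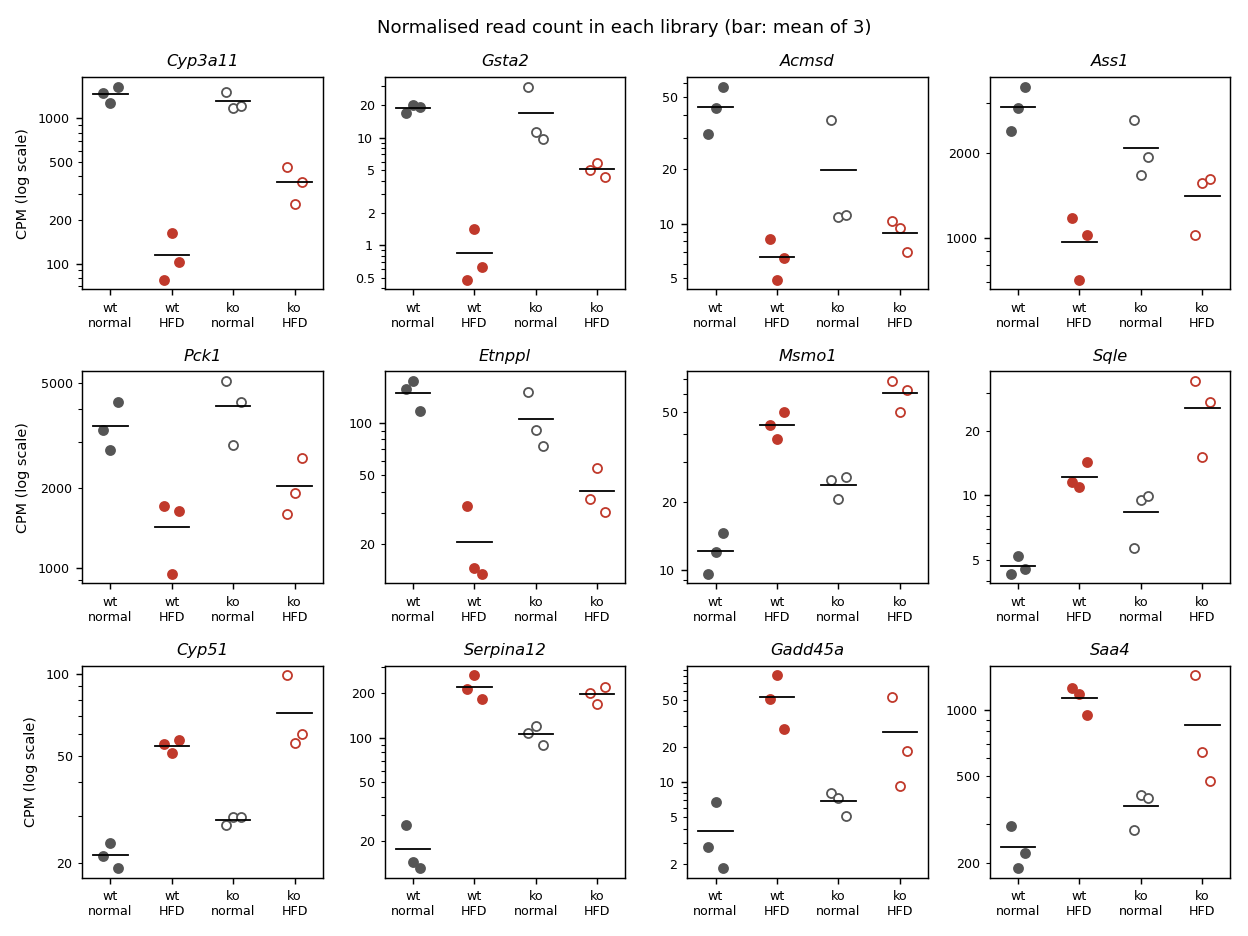
Normalised read count (CPM, log scale) of 12 called genes in each library, with filled points for wt, open points for ko, grey for normal diet and red for HFD, and bars at the mean of 3 libraries. The 12 genes were chosen among those whose diets do not overlap within either genotype, and the size of the gap between the diets varies from Ass1 in ko livers, where it is small, to Serpina12 in wt livers.

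Hormones and carriers secreted by the liver were among the genes that rose. Of 16 tested secreted regulators of energy balance, 3 were called higher and none lower (median 0.57). The number called was 1 without ko_normal replicate 2 or 3, and the median was 0.18 without wt_HFD replicate 1. Serpina12 (vaspin, chromosome 12, 104028769 to 104044443), a serpin linked to insulin sensitivity, was at 13.2 to 121 CPM on the normal diet (median 57.7) and at 170 to 264 CPM on HFD (median 206), a change of 2.26 ± 0.18 (SE, adjusted p 0.000141). The diets did not overlap, and the normal values split by genotype, with 13.2 to 25.7 CPM in wt and 89.8 to 121 CPM in ko livers. Gdf15, a stress-induced hormone that lowers food intake, was at 2.91 to 26.7 CPM (median 10.5) and at 19.7 to 146 CPM (median 67.5), a change of 2.90 ± 0.47 (adjusted p 0.015). Its diets overlapped in ko livers. Lect2, a hepatokine, rose by 0.91 ± 0.19 (adjusted p 0.0461), and lost its call in 11 of the 12 fits that each left out 1 library. Fgf21, the fasting hormone of the liver, ranged from 1.85 to 13.6 CPM and from 8.7 to 338 CPM, with a change of 2.58 ± 0.73 and an adjusted p of 0.103. Leap2, a ghrelin receptor antagonist named after its values were seen, rose by 1.24 ± 0.26 (adjusted p 0.0471).

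Serpina12 sits in a row of serpin genes on chromosome 12 that was looked at after its values were seen. Of 18 tested Serpina genes between 103614786 and 104414329, 17 had a positive log2 change, 4 were called higher, and the median was 0.83. Among all genes 47.2% had a positive change and 0.582% were called higher. The 18 include Serpina12 itself, for which the row was chosen, and related genes may share reads. Serpina4-ps1, listed as a pseudogene, was at 21.1 to 67 CPM (median 55.9) and at 115 to 1040 CPM (median 569), a change of 3.35 ± 0.48 (SE, adjusted p 0.00898) without overlap. Serpina11 and Serpina10 rose by 1.12 ± 0.21 (adjusted p 0.0305) and 1.15 ± 0.23 (adjusted p 0.0385). The abundant antitrypsin genes of the same row changed little, from −0.01 for Serpina1d to 0.50 for Serpina1c, and none was called. Serpina7, the carrier of thyroid hormone on chromosome X, was at 1.48 to 23.4 CPM (median 6.37) and at 20.7 to 283 CPM (median 63.4), a change of 3.34 ± 0.66 (adjusted p 0.0377). It was called in 4 of the 12 fits that left out 1 library and not without the 3 libraries that stood apart. Dio1, which activates thyroid hormone and was named after its values were seen, rose by 1.12 ± 0.23 (adjusted p 0.0428), from a median of 76.7 to 227 CPM.

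Acute phase genes, the plasma proteins that the liver makes in inflammation, lay on the positive side in 21 of 22 cases with a median of 0.86, and 1 was called. Saa4, a constitutive serum amyloid A, was at 189 to 409 CPM on the normal diet (median 289) and at 471 to 1438 CPM on HFD (median 1064), a change of 1.75 ± 0.25 (SE, adjusted p 0.00898) without overlap. The inducible Saa1 ranged from 55.2 to 6158 CPM on the normal diet and from 169 to 15302 CPM on HFD (2.02 ± 1.03, adjusted p 0.33). Its 3 wt_HFD libraries and ko_HFD replicate 1 lay between 12324 and 15302 CPM, while ko_HFD replicates 2 and 3 lay at 169 and 271 CPM, each below 5 of the 6 normal libraries. Lcn2 (2.89, adjusted p 0.113), Saa3 (3.45, adjusted p 0.07) and Hp (1.19, adjusted p 0.0758) were not called. The median of the list was 0.26 without ko_HFD replicate 1, and the call of Saa4 held in all 12 fits that left out 1 library but not without the 3 libraries that stood apart. The share of counts in 6 neutrophil markers was 0.000343% to 0.00099% on the normal diet and 0.000581% to 0.00414% on HFD (exact permutation test within genotype, two-sided p = 0.065), and its part in these changes was not tested.

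All 24 tested interferon response genes had a positive log2 change (median 0.42, against 47.2% of all genes positive), and 1 was called. With 1 library left out 19 to 24 were positive, the lowest number without wt_HFD replicate 3. Psmb8, an immunoproteasome subunit, was at 31.9 to 72.1 CPM (median 38) and at 54 to 93.7 CPM (median 75.5), a change of 0.79 ± 0.15 (SE, adjusted p 0.0312), with overlap between the diets. It lost its call in 8 of the 12 fits that left out 1 library. Psmb9 (0.79, adjusted p 0.0521), Ifit1 (1.52, adjusted p 0.0554) and Isg15 (0.79, adjusted p 0.239) were not called. Psmb10 and the peptide transporter Tap2, named after their values were seen, rose by 0.63 ± 0.13 (adjusted p 0.0455) and 0.62 ± 0.13 (adjusted p 0.0413). None of 23 complement and coagulation genes was called by edgeR (median 0.33, 19 positive, 6 at an unadjusted p under 0.05), against 1 by DESeq2 and 0 by limma voom, although C4a, which has a close copy in C4b and was named after its values were seen, rose by 1.86 ± 0.38 (adjusted p 0.0413).

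Of 21 tested p53 target genes, 2 were called higher and none lower (median −0.07). They were Gdf15 and Gadd45a, a growth arrest gene that p53 and other stress pathways induce. Gadd45a was at 1.84 to 8.11 CPM on the normal diet (median 5.94) and at 9.21 to 81.4 CPM on HFD (median 39.5), a change of 2.88 ± 0.45 (SE, adjusted p 0.0126). The diets did not overlap, in wt (3.80) or in ko livers (1.96). The p53 targets Cdkn1a (−0.07, adjusted p 0.965), Mdm2 (−0.16, adjusted p 0.463), Bax (0.20, adjusted p 0.485) and Ccng1 (−0.41, adjusted p 0.454) were not called. Of 21 genes of endoplasmic reticulum and amino acid stress, 1 was called higher and 18 had a positive change (median 0.45, with 0.81 in wt and 0.00 in ko livers). Creld2, a chaperone induced by misfolded proteins, rose by 0.91 ± 0.15 (adjusted p 0.0165), from a median of 64.3 to 107 CPM, with a change of 1.59 ± 0.22 in wt and 0.23 ± 0.21 in ko livers (unadjusted interaction p 0.00061). Creld2 was called in 9 of the 12 fits that left out 1 library. It was not called in the additive model or without the 3 libraries that stood apart. The immediate early genes had a median of 0.88 with 12 of 13 positive and none called by edgeR, 5 of them at an unadjusted p under 0.05, and DESeq2 and limma voom each called 2 higher, and edgeR without a filter 4. Without wt_HFD replicate 3 their median was 0.56 with 7 of 13 positive, and in the ko libraries alone it was 0.08 with 7 of 12. None of 18 clock genes was called by edgeR (median 0.09, 5 at an unadjusted p under 0.05), while DESeq2 and limma voom each called 2 higher. Here Dbp (1.36), Per3 (1.35), Arntl (−1.0) and Npas2 (−1.52) had adjusted p-values of 0.229, 0.217, 0.164 and 0.286.

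**Figure D4:**
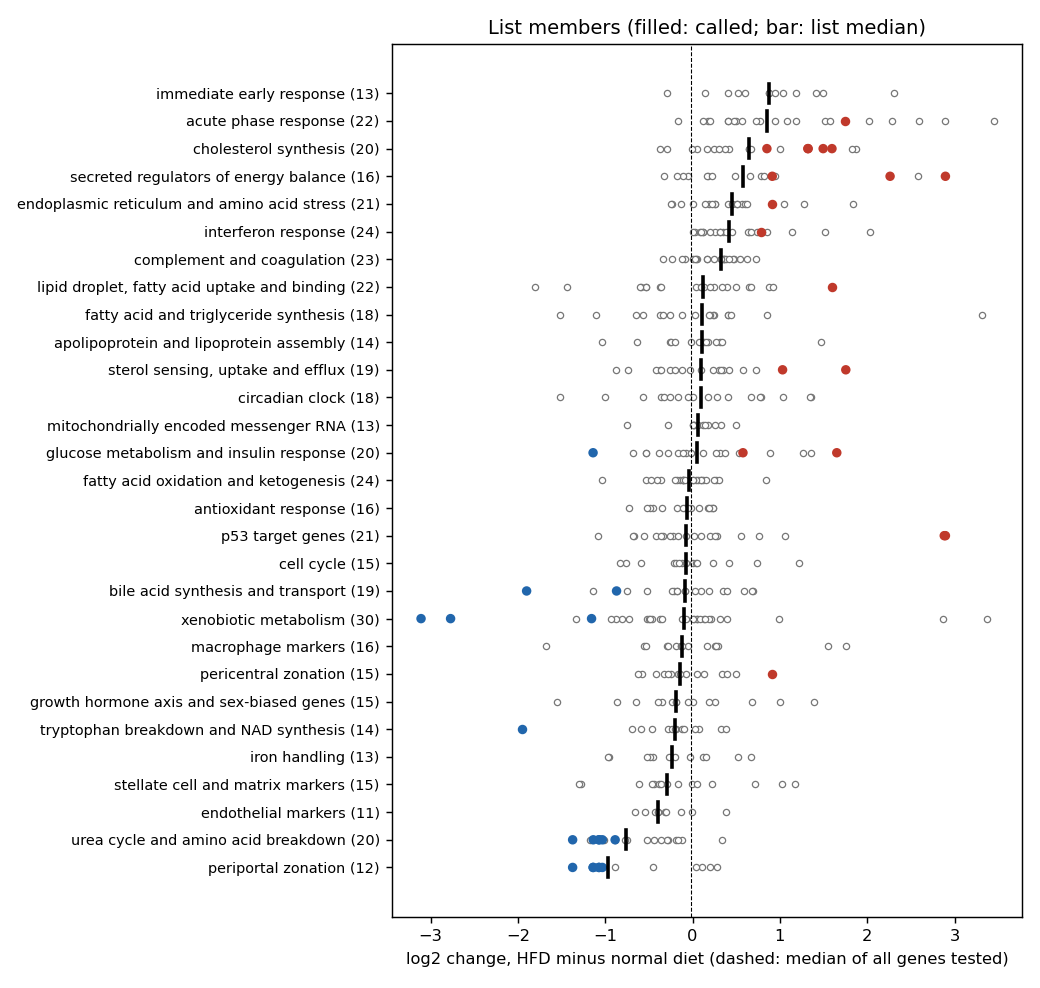
Fitted log2 change of each tested member of the 29 lists with at least 10 tested genes, ordered by list median (bars), with the number tested in brackets and the median of all genes as a dashed line. Filled points are called genes; they gather in the periportal and urea cycle lists on the left and in the cholesterol synthesis list on the right.

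The remaining genes named for large changes belonged to no list. The rule that named them leaves out predicted models, pseudogenes and genes whose diets overlap within a genotype. Slc22a7, an organic anion carrier, rose by 1.77 ± 0.26 (SE, adjusted p 0.0108), from a median of 16.9 to 48.1 CPM, and its diets overlapped only across genotypes. Nat8f5, an acetyltransferase-like gene, rose by 2.13 ± 0.32 (adjusted p 0.0113), from 3.52 to 13.9 CPM, and Adgrv1, a large adhesion receptor, by 2.31 ± 0.39 (adjusted p 0.0177), from 1.6 to 5.32 CPM, neither with overlap. Slc22a7 and Nat8f5 were called in all 12 fits that left out 1 library, and Adgrv1 in 8 of them. Without the 3 libraries that stood apart, Nat8f5 kept its call, while Slc22a7 and Adgrv1 lost theirs. Tsku, a secreted leucine-rich protein, rose by 1.62 ± 0.30 (adjusted p 0.0288), from 106 to 367 CPM, again without overlap. It was called in 4 of the 12 fits that left out 1 library, and also without the 3 libraries that stood apart. Extl1 (1.74, adjusted p 0.0413) and Gna14 (1.62, adjusted p 0.0413) completed the rises named by this rule. Both lost their calls in most fits that left out 1 library and without the 3 libraries that stood apart.

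Among the falls, 2 were long non-coding RNAs. Snhg11 was at 13.8 to 45.5 CPM on the normal diet (median 18.5) and at 2.89 to 9.27 CPM on HFD (median 4.29), a change of −2.14 ± 0.28 (SE, adjusted p 0.00534). Rian, from the imprinted Dlk1-Dio3 region, was at 2.02 to 18.8 CPM (median 4) and at 0.361 to 1.1 CPM (median 0.71), a change of −3.05 ± 0.58 (adjusted p 0.032). Rian was called in 4 of the 12 fits that left out 1 library, and not with a replicate block, with limma voom or without the 3 libraries that stood apart, while Snhg11 was called in all of these fits. Neither overlapped between the diets. Slc13a2, a citrate and dicarboxylate carrier, fell by 1.81 (SE 0.34, adjusted p 0.032), from a median of 3.16 to 0.887 CPM. Pld6 (−1.91, adjusted p 0.0344), a mitochondrial phospholipase, and Tmem266 (−1.59, adjusted p 0.0339) also fell, and neither exceeded 2.2 CPM in any library. Of the 12 fits that left out 1 library, Slc13a2 was called in 4, Pld6 in 2 and Tmem266 in 3.

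In the edgeR fit reported here no marker gene of another cell type was called for diet. This held for the macrophage (16 tested), endothelial (11), stellate cell and matrix (15), T and NK cell (7), B cell (6), neutrophil (4), cholangiocyte (5), skeletal muscle (8), adipocyte (3), pancreatic acinar (2) and erythroid (5) lists, in which 0 to 6 genes had an unadjusted p under 0.05. With 1.04% of all genes called, no call in lists this short is near the overall share. The unadjusted p was under 0.05 in 6 of 8 skeletal muscle, 4 of 4 neutrophil, 3 of 6 B cell and 3 of 5 erythroid markers. It was so in 0 of 5 cholangiocyte and 0 of 3 adipocyte markers, and in 17.6% of all genes. DESeq2 called 1 B cell and 1 acinar marker of these lists, limma voom 1 macrophage and 1 acinar marker, and edgeR without wt_HFD replicate 1 called 1 acinar marker. Testing all genes without a filter on low counts called 6 of 8 skeletal muscle and 2 of 6 erythroid markers lower, and 2 of 6 neutrophil, 1 of 16 macrophage and 1 of 8 acinar markers higher. The shares of counts in 13 gene classes were compared by an exact permutation of diet within genotype, which allows no two-sided p below 0.005. Erythroid markers took 0.0166% to 0.101% of the counts on the normal diet and 0.0154% to 0.0364% on HFD (p = 0.03, permutation), and 2 of the 13 classes had a p under 0.05, the other being the acinar markers (p = 0.015, permutation), with an adjusted p of 0.195 for both. Endothelial markers took 0.0248% to 0.0631% and 0.0233% to 0.0458% (p = 0.06, permutation), and 10 of 11 had a negative log2 change (median −0.40). The share of mitochondrially encoded genes did not separate the diets (p = 0.765, permutation), and neither did skeletal muscle (p = 0.345, permutation).

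The diet effect is an average over wt and ko livers, and the values of each are given here side by side. Of the 150 genes, 149 had the same sign in wt and ko livers, which the selection on their average favours. The absolute log2 change was larger in wt for 125 of them (83.3%) and in ko for 25, against 62.1% larger in wt among all genes tested. Its median over the 150 genes was 1.38 in wt and 0.81 in ko livers, and over all genes 0.30 and 0.21. The median SE was 0.28 in both, but the fit pools the spread of the 4 groups for each gene. The SE therefore does not show whether wt and ko libraries varied equally. No gene had an adjusted p under 0.05 for the difference between the diet effects (0% of 14433 genes in edgeR's test), with 725 genes (5.02%) at an unadjusted p under 0.05. Of the 150 genes called for the average, 42 had such an unadjusted p. Both tests use the same estimated spread of each gene, so this count is not independent of the calls. The smallest adjusted p was 0.0587 for Serpina12, with changes of 3.63 ± 0.27 in wt and 0.89 ± 0.25 in ko livers. Cyp3a11 fell by 3.69 (SE 0.31) in wt and by 1.85 (SE 0.29) in ko livers (unadjusted interaction p 0.00052), whereas Cyp51 changed by 1.35 and 1.30. The opposite order was seen for Cyp2c69, with −0.98 ± 0.53 in wt and −4.14 ± 0.62 in ko livers, and for Cyp2c40, with −0.79 ± 0.44 and −2.87 ± 0.48 (unadjusted interaction p 0.0018 and 0.0066). These were the only 2 genes called in a fit of the ko libraries alone, against 34 in a fit of the wt libraries alone. Replicate pairs differed by a chi-square per degree of freedom of 54.7 to 93.0 in wt groups and of 39.5 to 199 in ko groups. Whether this spread affected the 2 counts of calls was not tested.

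**Figure D5:**
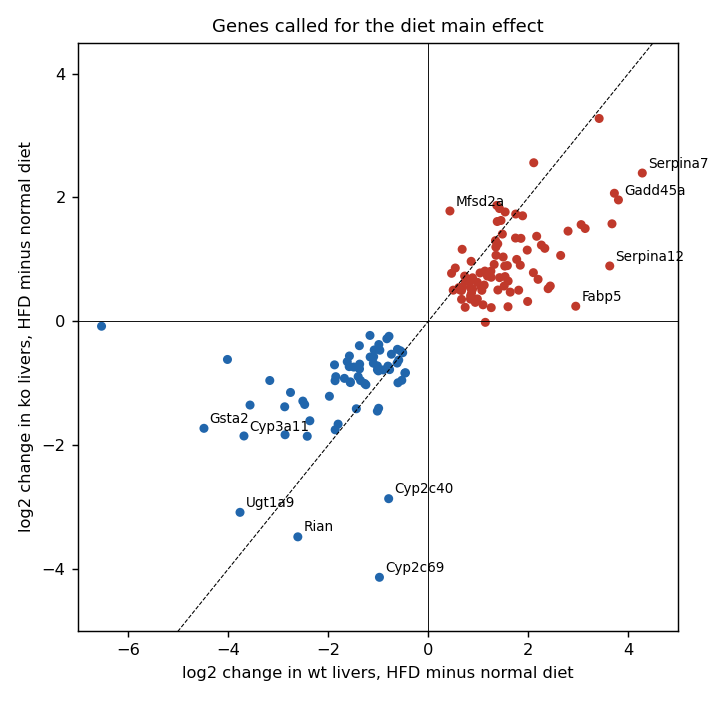
Diet effect in wt livers (x axis) against that in ko livers (y axis) as log2 changes, HFD minus normal diet, for the 150 genes called for their average (red higher, blue lower on HFD); the dashed line marks equal changes. Most points, 125 of 150, have the larger absolute change in wt livers, with Cyp2c69 and Cyp2c40 on the opposite side.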

How the data were processed

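CASAVA 1.8, Bowtie 0.12.2 and the builds mm8 and mm9 are named in the submitters' processing notes, with no role given. How reads were counted, with which annotation and strand setting, is not given in the sources used here. Each deposited file holds 1 raw read count per gene for 1 library, used unchanged; 52403 of 52636 identifiers matched a symbol, and gene positions are those of GENCODE M21 on GRCm38. Low genes were removed with filterByExpr, and 1 quasi-likelihood fit of the 4 groups (edgeR 4.0.16, R 4.3.3, TMM, 8 residual and 4.66 prior degrees of freedom) gave the mean of the wt and ko diet effects, two-sided, with Benjamini-Hochberg adjustment over 14433 genes. A gene was called at an adjusted p under 0.05. Values after ± are SE of fitted log2 changes, and intervals are at 95%. On simulated data over 14158 genes the fit recovered 69% of 2-fold and 93.9% of 4-fold changes, with 7 false calls among 169. Whether these rates hold for the deposited libraries, some of which stood apart, was not tested.

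The comparison and the 38 gene lists (598 of 600 entries matched) were chosen with earlier results of these data known. Named by rule were Trp53, Sqle, up to 12 called genes of largest rise and of largest fall (at least 1 CPM in the higher diet, diets not overlapping within a genotype, no predicted models or pseudogenes, at most 2 a family), up to 4 called members per list or else the 1 of smallest p, and up to 6 genes called for the interaction. Other genes illustrate a list or were picked after their values were seen. Alternatives were other designs, filters and scalings, DESeq2 1.42.0, voom of limma 3.58.1, a test against a fold of 1.5, each genotype alone and each library left out. Replicate pairs differed by a chi-square of 39.5 to 199 per degree of freedom, so no pair was treated as 1 library. Some genes are not reported here, though the counts over all genes and lists include them.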

Additional observations from a re-analysis of the deposited data

Results flagged for a closer look

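For each of the 63 named genes the 6 libraries of each diet were searched for 1 value far from the other 5, by Dixon's ratio with a 95% critical value of 0.625. Of 126 combinations, 14 were picked out, where about 1 in 20 would be if the values were normally distributed. All 14 were the highest of their 6 values. CPM values need not be normally distributed, so the 14 are not a count beyond chance. They fell on 8 libraries, with 4 in ko_HFD replicate 1 and 3 in ko_normal replicate 1.

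In ko_HFD replicate 1, Thrsp stood at 938 CPM against 11.5 to 220 CPM in the other HFD libraries. The same library held the highest Cyp51 (98.9 CPM, others 51.2 to 60.2), Slc22a7 (107 CPM, others 33.6 to 51.5) and Gna14 (11.9 CPM, others 1.62 to 4.84). In ko_normal replicate 1, Slco1a4 was at 72.7 CPM against 18.2 to 31.9 in the other normal libraries, Snhg11 at 45.5 CPM against 13.8 to 19.9, and Rian at 18.8 CPM against 2.02 to 5.81. In wt_normal replicate 2, the muscle actin Acta1 was at 2816 CPM against 0.521 to 2.45. Acta1 was also highest in wt_HFD replicate 1, at 2.46 CPM against 0.283 to 1.03.

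The remaining values were single ones. Jun was at 220 CPM in wt_HFD replicate 3 (others 24.1 to 64.1), and Sox9 at 8.39 CPM in the same library (others 2.89 to 4.66). Cfd was at 72.9 CPM in ko_HFD replicate 3 (others 0.0601 to 6.91), Pld6 at 0.979 CPM in ko_HFD replicate 2 (others 0.12 to 0.439), and Fabp5 at 14.9 CPM in ko_normal replicate 2 (others 3.32 to 7.19).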

How the results depend on the processing

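The 150 genes called were 84 higher and 66 lower; the cause of the differences given here was not tested unless fewer samples or another number of genes tested shows it. Testing all genes without a filter called 489 (286 higher, 203 lower), the Wald test of DESeq2 807 (509, 298) and voom with sample weights 610 (343, 267). A test against a fold of 1.5 called 9 (4, 5), the wt libraries alone 34 (25, 9), the ko libraries alone 2 (0, 2), and the set without the 3 libraries that stood apart, chosen after seeing the data, 28 (17, 11). Library totals without TMM factors gave 54 higher and 103 lower. Same-numbered libraries correlated at −0.209 to 0.332 in their deviations from the group means. Differently numbered libraries were not compared, so whether the numbers pair the libraries was not tested. With a replicate block 104 genes were called (53 higher, 51 lower), 90 of them among the 150. Leaving out 1 library gave 45 to 272 genes, 22 to 143 higher and 18 to 129 lower, and 17 of the 41 named called genes kept their call in all 12 such fits. The interaction count ranged from 0 to 1, with Serpina12 called without wt_normal replicate 1 and Foxq1 without wt_normal replicate 3. Of the 150 genes, those tested in a setting (148 in each genotype alone, 144 at 1 CPM or more in 6 libraries, otherwise 150) kept their sign, except 1 in the ko libraries alone. Among named genes that were not called, Cfd turned to 2.01 and Sox9 to −0.19 in the ko libraries alone, and Trp53 to 0.41 with voom and 0.49 without the 3 libraries, with −0.36 to 0.51 when 1 library was left out. For shares of counts, in percentage points, the mitochondrial difference was −0.564 (−1.50 to 0.974 with 1 library left out, 0.123 in wt alone), the erythroid one −0.0260 (−0.0315 to −0.0164, with −0.0417 in wt and −0.0102 in ko alone), the endothelial one −0.0106 (−0.0131 to −0.00853) and the acinar one 0.00120 (0.00103 in wt and 0.00136 in ko alone). A single genotype of 3 against 3 cannot reach a permutation p under 0.1. Depth limits genes of few reads such as Ugt1a9, Fdps and Idi1.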

Other observations

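Called genes that lie close together on a chromosome were listed after the calls were made. The 150 called genes formed 16 groups of neighbours less than 250000 bases apart. How many groups 150 tested genes picked at random would form was not counted, so the 16 are a description only. Some held related genes that moved the same way, such as Hal and Amdhd1 of histidine breakdown on chromosome 10, Cyp2c40 and Cyp2c69 on chromosome 19, and Nat8f5 (2.13) and Nat8f2 (0.70) on chromosome 6. Others joined unrelated genes that moved in opposite directions, such as Tgm2 (0.69) and Snhg11 (−2.14) on chromosome 2. On chromosome 4, Mfsd2a (1.11) stood beside 4933421A08Rik (2.34). Overlapping genes and near-identical copies share reads, so neighbours are not independent counts.

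Growth hormone dependent and sex-biased genes gave no call among 15 tested (median −0.19, 6 at an unadjusted p under 0.05, 1 call by DESeq2 and 0 by limma voom). Hsd3b5 had a log2 change of 1.01 (adjusted p 0.199), Elovl3 −0.87 (adjusted p 0.367) and Socs2 1.39 (adjusted p 0.257). Iron handling genes likewise gave no call among 13 tested (median −0.24, 3 at an unadjusted p under 0.05, 1 call by DESeq2 and 0 by limma voom), and the hepcidin gene Hamp had −0.46 (adjusted p 0.72). Cell cycle genes gave no call by edgeR, DESeq2 or limma voom among 15 tested (median −0.08, 1 at an unadjusted p under 0.05).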
